A study of Sus scrofa with 12 samples.

Results

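The arrays carried 6 probes for chemokines released by activated leukocytes, named IL8, MPIb, MP1a, RANTES, MCP-2 and MCP3 in the scanner output. These 6 were selected by name out of 188 gene probes, and each was printed as 8 spots, giving 48 spots on every array. The names were chosen from measured values of these same arrays, namely their intensities and their ratios between genotypes. Intensities and ratios of the 6 probes are therefore given as description. Counts of limma calls come from the fit over all probes, and nothing is read from them for these 6. The study hybridised blood mononuclear cell RNA of Yorkshire boars to 12 two-colour cDNA arrays. The boars were grouped by SLA-DRB1, which encodes the DR beta chain of pig MHC class II, into allele 050502, allele 070701 and a potentially new allele, called New. Each genotype was represented by 2 animals, whose cells were separated on a density gradient and not treated further. Every genotype pair had 2 hybridised pairs of animals, called A and B, and each of these was run on 2 arrays with the dyes exchanged. The labels give neither ages nor the animal behind each hybridisation, and all 3 genotype pairs draw on the same 6 animals.

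Chemokines are small secreted proteins that guide leukocytes along concentration gradients through receptors coupled to G proteins. CXC chemokines such as IL-8 mainly draw neutrophils, whereas the CC chemokines of inflammation draw monocytes, T cells and NK cells. Monocytes are a main source of most of them in blood, and transcription of many is induced by NF-kB downstream of bacterial sensors. IL8 was read as CXCL8, which acts through CXCR1 and CXCR2. MPIb and MP1a were read as the MIP-1 proteins CCL4 and CCL3, and RANTES as CCL5, all of them CC chemokines of inflammation. MCP-2 and MCP3 were read as CCL8 and CCL7, monocyte chemoattractants related to MCP-1. The readings rest on the array's names alone. Of the 6 symbols, 4 were found among RefSeq pig genes of assembly Sscrofa11.1, and CCL3 and CCL7 were not matched. In that annotation 1 gene lies between CCL4 and CCL3L1. Probe sequences were not used here, so cross-hybridisation between these related genes was not tested.

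Median spot intensity over the 12 arrays ranged from 382 to 2004 in red and from 498 to 2078.5 in green, against median local backgrounds of 96 to 320 and 113 to 359.5. Of the 188 gene probes, 185 were tested, the 6 chemokine probes among them. Over these 185 probes, the ratios of hybridised pairs A and B correlated at r = 0.60 in 050502 vs 070701 and r = 0.64 in 070701 vs New. In 050502 vs New the correlation was r = -0.54. Probes are not independent replicates, so these coefficients describe the arrays. The direction of the 050502 vs New comparison is therefore not settled, although the labels give the dye of each genotype. Not every probe was reversed. As labelled, the class II probes MHC-DQ (-0.24 and -0.46) and MHC-DY (-0.06 and -0.10) kept their sign in pairs A and B. Their larger ratios were those involving 070701. In 050502 vs 070701 and 070701 vs New, MHC-DQ was at 1.30 and -1.37 and MHC-DY at 1.12 and -1.02. The small ratios between 050502 and New therefore cannot decide the direction. Whether pair A differs through its labels or its animals was not tested. Means, levels, counts and list medians of 050502 vs New are given as labelled, and most of them again with pair A turned. A value of pair A alone changes only its sign when turned. Precision is limited by how few arrays there were.

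Brightness was set against 2 DNAs with no counterpart in pig cells, VapA from the bacterium Rhodococcus equi and the plasmid pACYC177. Their geometric mean foreground intensities over the 24 array channels were 1040 and 1520. Genomic DNA spots stood at 3844 and buffer spots at 218. MPIb and RANTES were brighter than both controls on average. This is 2 of 6 probes, beside 25.5% of all 188 gene probes.

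MPIb ranged from 974 to 10056 with a median of 2892, and its geometric mean of 3040 was 2.92 times that of VapA and 2.00 times that of pACYC177. It exceeded both controls in 21 of 24 channels. RANTES ranged from 474 to 3545 with a median of 1736, and its mean of 1635 was 1.57 times VapA and 1.08 times pACYC177. All 24 RANTES channels exceeded VapA, but only 15 exceeded pACYC177 as well. The margin of RANTES over pACYC177 was 0.11 on the log2 scale (SD 0.39 over 24 channels), less than the spread between channels.

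MP1a and IL8 lay between the controls. MP1a ranged from 511 to 2699 with a median of 1187, its mean of 1225 was 1.18 times VapA and 0.806 times pACYC177, and 7 channels exceeded both. IL8 ranged from 414 to 4947 with a median of 1078, its mean of 1163 was 1.12 times VapA and 0.765 times pACYC177, and 4 channels exceeded both. All 4 of those IL8 channels held RNA of genotype 050502. For MP1a, 5 of the 7 held 050502 RNA and 2 held New RNA. The 2 New channels were those of pair A of 050502 vs New, and with that pair turned all 7 held 050502 RNA.

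MCP-2 and MCP3 were dimmer than both controls on average. MCP-2 ranged from 295 to 1838 with a median of 905, and its mean of 834 was 0.802 times VapA and 0.549 times pACYC177. A single MCP-2 channel of 24 exceeded VapA, and 0 exceeded both controls. MCP3 ranged from 332 to 2026 with a median of 929, and its mean of 860 was 0.827 times VapA and 0.566 times pACYC177, with 6 channels above VapA and 1 above both. Ratios of MCP-2 and MCP3 thus come from signals below those of control DNA. A foreground above local background by 2 background SD was reached in 21 of 24 channels for MCP3 and 22 for MCP-2, and the other 4 probes reached it in 23 or 24. No spot of the 6 probes had a saturated pixel.

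**Figure D1:**
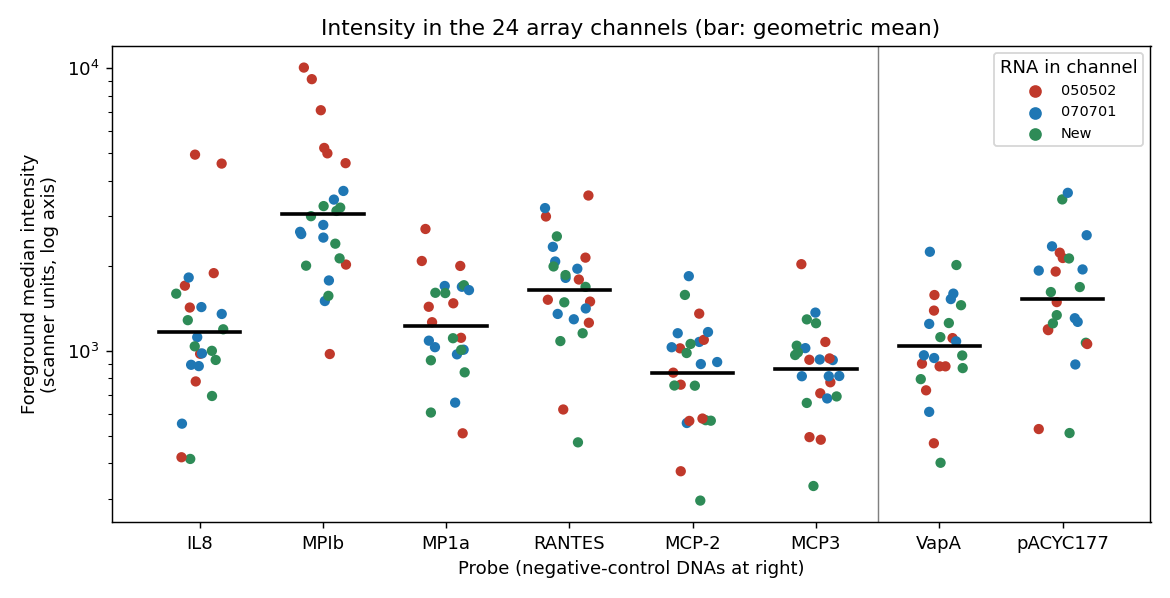
Foreground median intensity (scanner units, log axis) of the 6 chemokine probes and of VapA and pACYC177 in the 24 array channels, coloured by the genotype of the RNA, with the geometric mean as a bar. MPIb stands at 3040 and MCP-2 at 834, against 1040 for VapA and 1520 for pACYC177.

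The 050502 channels of MPIb had a median intensity of 5112, against 2613 in 070701 channels and 2695 in New channels, with 8 channels each. The 3 ranges overlapped, from 974 to 10056, from 1501 to 3680 and from 1565 to 3253. IL8 had medians of 1562, 1049 and 1019 in the same order, and MP1a 1452, 1058 and 1058. For RANTES the order was different, with 1652, 1882 and 1584. MCP-2 and MCP3 medians were 798 and 852 for 050502, 1053 and 871 for 070701, and 753 and 977 for New. With pair A of 050502 vs New turned, the 050502 and New medians were 5112 and 2259 for MPIb, 1562 and 964 for IL8, 1539 and 1058 for MP1a and 1652 and 1589 for RANTES. Raw intensities also vary with the overall brightness of an array, which ratios within an array take out.

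In the comparison of 050502 with 070701, IL8, MPIb and MP1a were higher in 050502 cells on all 4 arrays, and the other 3 probes lay near equality. The means of the first 3 corresponded to 2.52-, 2.73- and 2.12-fold. Ratios are log2 values of the first-named genotype over the second, normalized within each array. Each mean is over the 2 hybridised pairs, and the SD is that between them.

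IL8, the neutrophil attractant, had ratios of 0.48 and 0.91 on the arrays of pair A and 1.45 and 2.50 on those of pair B. All were above 0, those of pair B were higher than those of pair A, and the mean was 1.33 (SD 0.91, n = 2 hybridised pairs). The exchanged dyes of pair B differed by 1.06, the widest gap of any IL8 dye exchange. MPIb, which attracts monocytes and T cells, had ratios of 0.96 and 1.09 in pair A and 1.72 and 2.03 in pair B. Its arrays were again all above 0 and higher in pair B, with a mean of 1.45 (SD 0.60, n = 2). MP1a, the partner of MPIb, had ratios of 0.85 and 0.69 in pair A and 1.40 and 1.41 in pair B. They too were all above 0, and the mean was 1.09 (SD 0.45, n = 2).

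RANTES, a T cell attractant made by T and NK cells as well as monocytes, had ratios of -0.16 and -0.13 in pair A and 0.20 and 0.50 in pair B. The sign differed between the hybridised pairs, and the mean of 0.10 was smaller than its SD of 0.35 (n = 2). MCP-2 had ratios of 0.02, -0.02, 0.19 and 0.04 on the 4 arrays in order, with a mean of 0.06 (SD 0.08, n = 2). MCP3 had ratios of -0.08, 0.02, -0.34 and 0.15, with a mean of -0.06 (SD 0.04, n = 2). Both monocyte attractants had arrays on each side of 0. In pair B array 1, MCP3 was averaged over 7 spots because 1 spot was marked as not found.

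**Figure D2:**
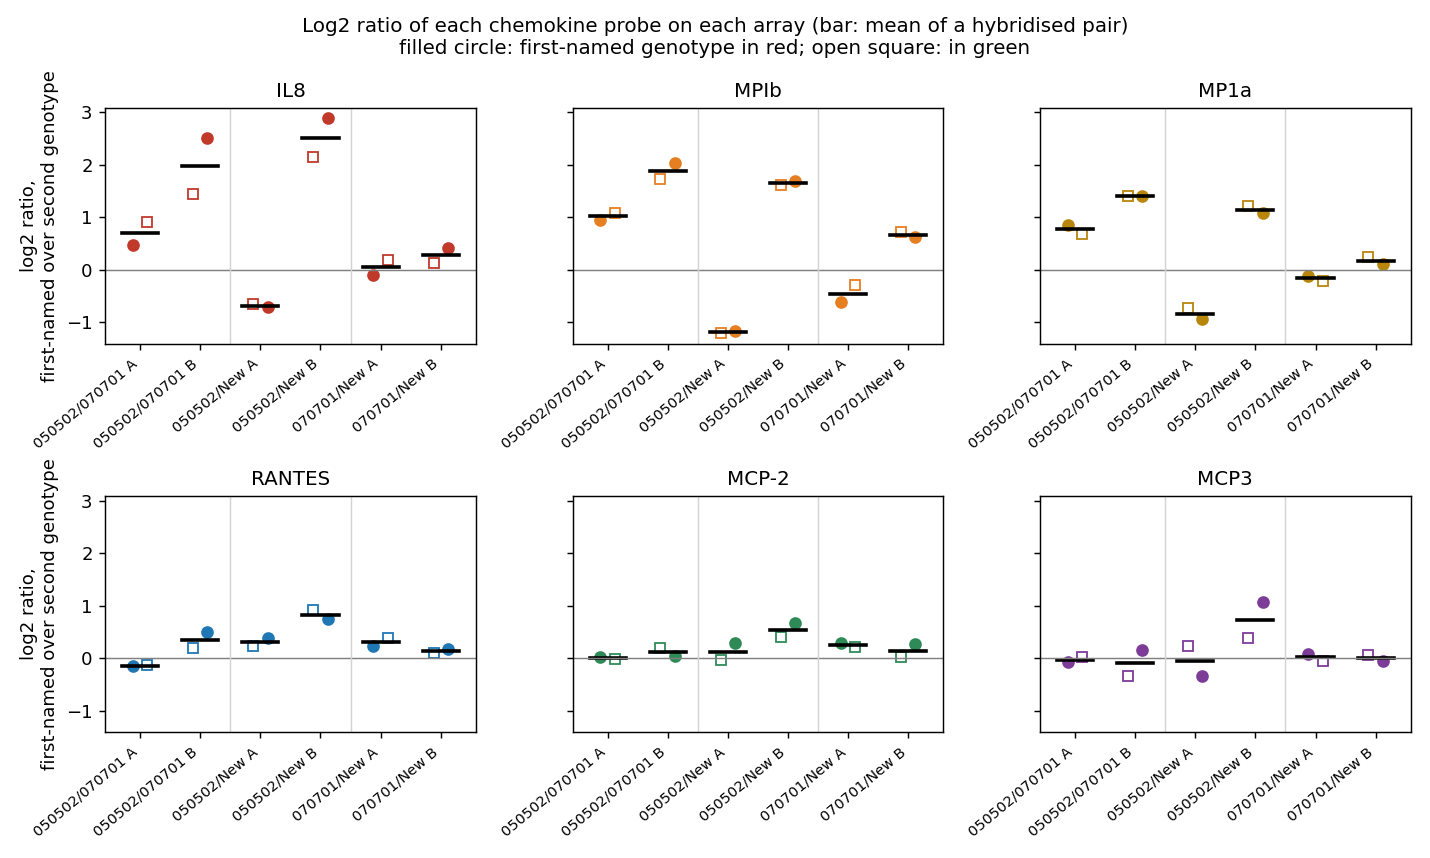
Log2 ratio of the first-named over the second genotype for the 6 probes (panels) on each array, grouped by hybridised pair; filled circles have the first-named genotype in red, open squares in green, and bars are the mean of a hybridised pair. IL8, MPIb and MP1a lie above 0 on all 4 arrays of 050502 vs 070701 and on both sides of 0 in 050502 vs New.

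Counts over all probes give the background for this pattern. In 050502 vs 070701, 3 of the 6 probes had 4 arrays in the same direction, beside 29.2% of the 185 tested probes. A mean ratio over 1 in favour of 050502 was reached by the same 3 of 6, beside 3.24% of all tested probes. By limma with adjusted p under 0.05, 0 of the 6 chemokine probes were called, beside 1.08% of tested probes, and at unadjusted p under 0.05 also 0 of 6, beside 8.11%. The fit shares its spread over all pairs. With pair A of 050502 vs New turned, 0 of 6 were called at adjusted p, beside 4 of the 185 tested probes. At unadjusted p the turned fit counted 3 of 6. The share of all tested probes was not taken there, and the 8.11% belongs to the fit as labelled. The probes called as labelled were MHC-DQ and MHC-DY, both class II genes. Because the 6 probes were chosen with these ratios known, the counts carry no weight of their own. The median ratio of the 6 was 0.60, and that of all 185 probes was -0.0043.

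By rank from the highest ratio among the 185 probes, MPIb, MP1a and IL8 stood at 4, 7 and 9 in pair A, and at 3, 5 and 2 in pair B. RANTES stood at 162 and 22, MCP-2 at 99 and 50, and MCP3 at 118 and 131. The first 3 were thus near the top in both hybridised pairs, while the ranks of RANTES lay far apart.

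In the comparison of 050502 with New, the hybridised pairs opposed each other for IL8, MPIb and MP1a. All were higher in the New animal in pair A and higher in the 050502 animal in pair B. RANTES was higher in 050502 cells on all 4 arrays as labelled.

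IL8 had ratios of -0.66 and -0.71 in pair A and 2.14 and 2.88 in pair B, and the pairs did not overlap. That is 1.60-fold higher in New cells in pair A and 5.71-fold higher in 050502 cells in pair B. The mean of 0.92 had an SD of 2.26 (n = 2), and with pair A turned it became 1.60 (SD 1.30). MPIb had ratios of -1.20 and -1.16 in pair A and 1.61 and 1.70 in pair B, again without overlap. It was 2.26-fold higher in New cells in pair A and 3.14-fold higher in 050502 cells in pair B. Its mean was 0.24 (SD 2.00, n = 2) as labelled and 1.42 (SD 0.34) turned. MP1a had ratios of -0.74 and -0.93 in pair A and 1.21 and 1.07 in pair B. These are 1.78-fold in favour of New and 2.21-fold in favour of 050502. The mean was 0.15 (SD 1.40, n = 2) as labelled and 0.99 (SD 0.22) turned.

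RANTES had ratios of 0.24 and 0.39 in pair A and 0.91 and 0.74 in pair B, all above 0 and higher in pair B. Its mean was 0.57 (SD 0.36, n = 2), or 1.48-fold, and 0.26 (SD 0.81) turned. MCP-2 had ratios of -0.03 and 0.28 in pair A and 0.41 and 0.67 in pair B, with a mean of 0.33 (SD 0.29, n = 2) as labelled and 0.21 (SD 0.47) turned. MCP3 had ratios of 0.23 and -0.34 in pair A and 0.38 and 1.07 in pair B. Its mean was 0.33 (SD 0.55, n = 2) as labelled and 0.39 (SD 0.47) turned. For MCP-2 and MCP3, 3 of 4 arrays favoured 050502, and the arrays of pair A straddled 0.

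The New channel was detected on 2 of 4 arrays for MCP-2 and MCP3, on 3 of 4 for IL8 and on all 4 for MPIb, MP1a and RANTES. The 050502 channel of MCP3 was detected on 3 of 4 arrays, and that of the other 5 probes on all 4. Local background at the spots was uneven in pair B. For IL8 it was 599 and 538 in the 050502 and New channels of array 1 and 736 and 841 in those of array 2, against 95 to 155 in pair A. MCP3 spots had backgrounds of 680 to 792 in pair B, whereas MP1a spots had 212 to 259, against 101 to 160 in pair A. MPIb and RANTES spots lay between 406 and 778 in the same arrays, and MCP-2 spots between 230 and 300.2. The part of local background in these ratios was not tested.

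At 4 arrays in the same direction, 1 of 6 probes (RANTES) was counted in 050502 vs New, beside 9.19% of tested probes. No chemokine probe had a mean over 1 as labelled, beside 0% of all tested probes. By limma, 0 of 6 had an adjusted p under 0.05, beside 0% of tested probes, and 2 of 6 had an unadjusted p under 0.05, beside 8.11%. The median of the 6 was 0.33, and that of all tested probes 0.0019. With pair A turned, 3 of 6 (IL8, MPIb and MP1a) had 4 arrays in the same direction, beside 20.5% of tested probes, and RANTES had 2 arrays on each side of 0. A mean over 1 was then reached by 2 of 6 (IL8 and MPIb), beside 2.7%. By limma, 0 of 6 had an adjusted p under 0.05 when turned, beside 2.16%, and 3 of 6 an unadjusted p under 0.05, beside 14.6%. The turned median of the 6 was 0.69, and that of all tested probes 0.02. Without pair A, limma called MCP3 and IL1b, but this leaves 1 hybridised pair of 050502 vs New, assumed to vary like the others. MCP3 is also the probe among the 6 whose dye exchanges disagreed most often in sign.

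In the comparison of 070701 with New, the 6 probes had mean ratios from 0.0050 to 0.22, all slightly in favour of 070701. IL8 had ratios of -0.10 and 0.19 in pair A and 0.13 and 0.42 in pair B, with a mean of 0.16 (SD 0.16, n = 2). MPIb had ratios of -0.62 and -0.29 in pair A and 0.72 and 0.62 in pair B, and the pairs opposed each other without overlap. Its mean was 0.11 (SD 0.80, n = 2). MP1a had ratios of -0.11 and -0.22 in pair A and 0.25 and 0.10 in pair B, with a mean of 0.0050 (SD 0.24, n = 2). The signs of MP1a followed those of MPIb, at a smaller size.

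RANTES had ratios of 0.23, 0.39, 0.10 and 0.17 on the 4 arrays, all higher in 070701, with a mean of 0.22 (SD 0.12, n = 2). MCP-2 had ratios of 0.28, 0.22, 0.02 and 0.27, also all higher in 070701, with a mean of 0.20 (SD 0.07, n = 2). MCP3 had ratios of 0.09, -0.05, 0.07 and -0.04, on both sides of 0, with a mean of 0.02 (SD 0.0059, n = 2). The counts were 2 of 6 with 4 arrays in the same direction, beside 29.7% of tested probes, and 0 of 6 with a mean over 1, beside 0.541%. By limma, 0 of 6 were called at adjusted p under 0.05, beside 1.08%, and 0 of 6 at unadjusted p under 0.05, beside 7.57%. The median ratio of the 6 was 0.13 and that of all tested probes 0.0065.

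**Figure D3:**
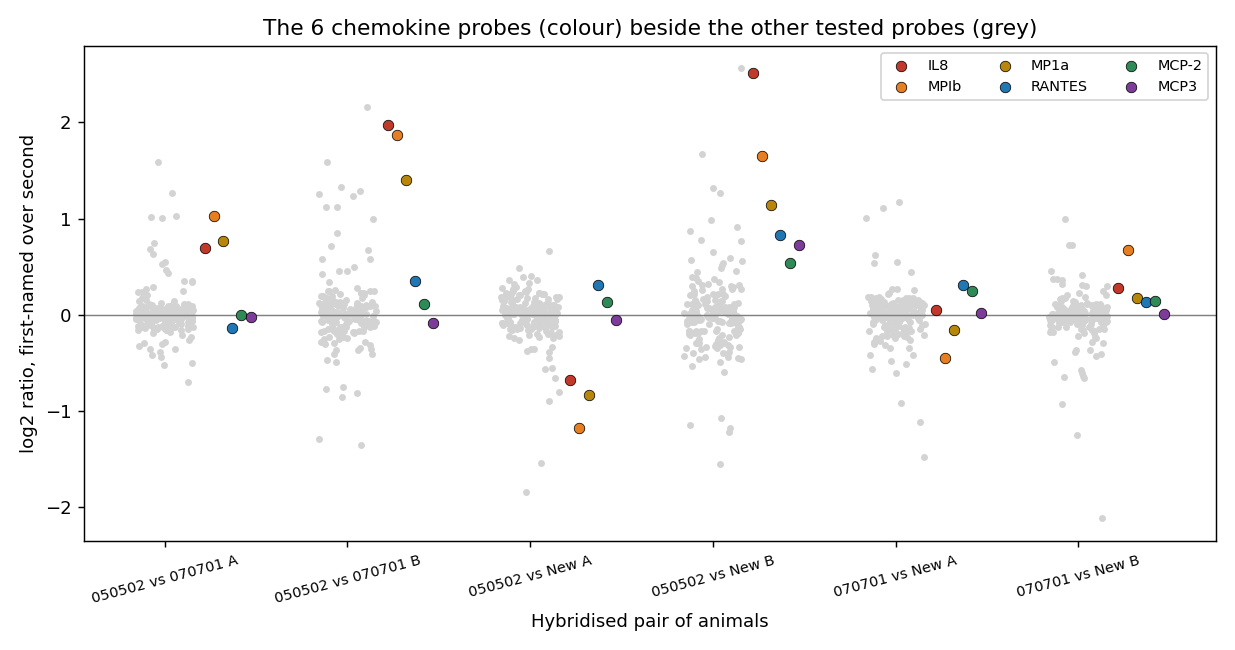
Log2 ratio of the first-named over the second genotype in each of the 6 hybridised pairs, for the 6 chemokine probes (coloured, spread sideways for legibility) and the other tested probes (grey). IL8 reaches 2.51 in pair B of 050502 vs New and MPIb lies at -1.18 in pair A, while MCP3 stays between -0.09 and 0.72.

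A level per genotype was also taken from each hybridised pair, as the log2 intensity above the median tested probe of the same channel, averaged over the dye exchange. Each genotype then has 4 hybridisations, which share 2 animals. MPIb levels of 050502 were 2.85, 3.23, 1.62 and 3.32, where the 1.62 belongs to pair A of 050502 vs New. Its levels were 1.84, 1.38, 0.68 and 1.88 in 070701 and 2.85, 1.63, 1.14 and 1.24 in New. The highest New level came from that same pair A. MPIb levels averaged 2.76 (SD 0.78) in 050502, 1.71 (SD 0.79) in New and 1.44 (SD 0.56) in 070701, n = 4 hybridisations each, and New and 070701 did not differ beyond their spread. With that pair turned, the means were 3.06 (SD 0.25) in 050502 and 1.41 (SD 0.25) in New, so the order of New and 070701 depends on the direction of that pair.

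IL8 levels were 0.50, 1.47, -0.25 and 1.65 in 050502, -0.18, -0.48, -0.43 and -0.16 in 070701, and 0.48, -0.91, -0.46 and -0.41 in New. The lowest 050502 level and the highest New level again came from pair A of 050502 vs New. The means were 0.84 (SD 0.89), -0.31 (SD 0.16) and -0.33 (SD 0.58), with the last 2 well within their spread. Turned, they were 1.03 (SD 0.62) in 050502 and -0.51 (SD 0.28) in New. MP1a levels were 1.01, 0.82, 0.38 and 1.23 in 050502, 0.25, -0.57, -0.51 and 0.29 in 070701, and 1.26, 0.04, -0.34 and 0.15 in New. The 050502 levels were all above those of 070701, and the New level of pair A was above all of them. Means were 0.86 (SD 0.36), -0.13 (SD 0.47) and 0.28 (SD 0.69), and turned they were 1.08 (SD 0.21) in 050502 and 0.06 (SD 0.30) in New.

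RANTES levels in 050502 ran from 0.55 to 1.62 with a mean of 1.12 (SD 0.50). They ran from 0.70 to 1.11 in 070701 (mean 0.87, SD 0.18) and from 0.59 to 0.75 in New (mean 0.66, SD 0.07). The ranges of all 3 genotypes overlapped, and the turned means were 1.06 (SD 0.56) in 050502 and 0.72 (SD 0.12) in New. MCP-2 levels averaged -0.47 (SD 0.13), -0.39 (SD 0.16) and -0.64 (SD 0.22) in 050502, 070701 and New. MCP3 levels averaged -0.50 (SD 0.23), -0.66 (SD 0.12) and -0.69 (SD 0.26) in the same order. For both probes the ranges of the genotypes overlapped. Turned, the 050502 and New means were -0.49 (SD 0.16) and -0.62 (SD 0.22) for MCP-2, and -0.48 (SD 0.24) and -0.71 (SD 0.22) for MCP3.

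**Figure D4:**
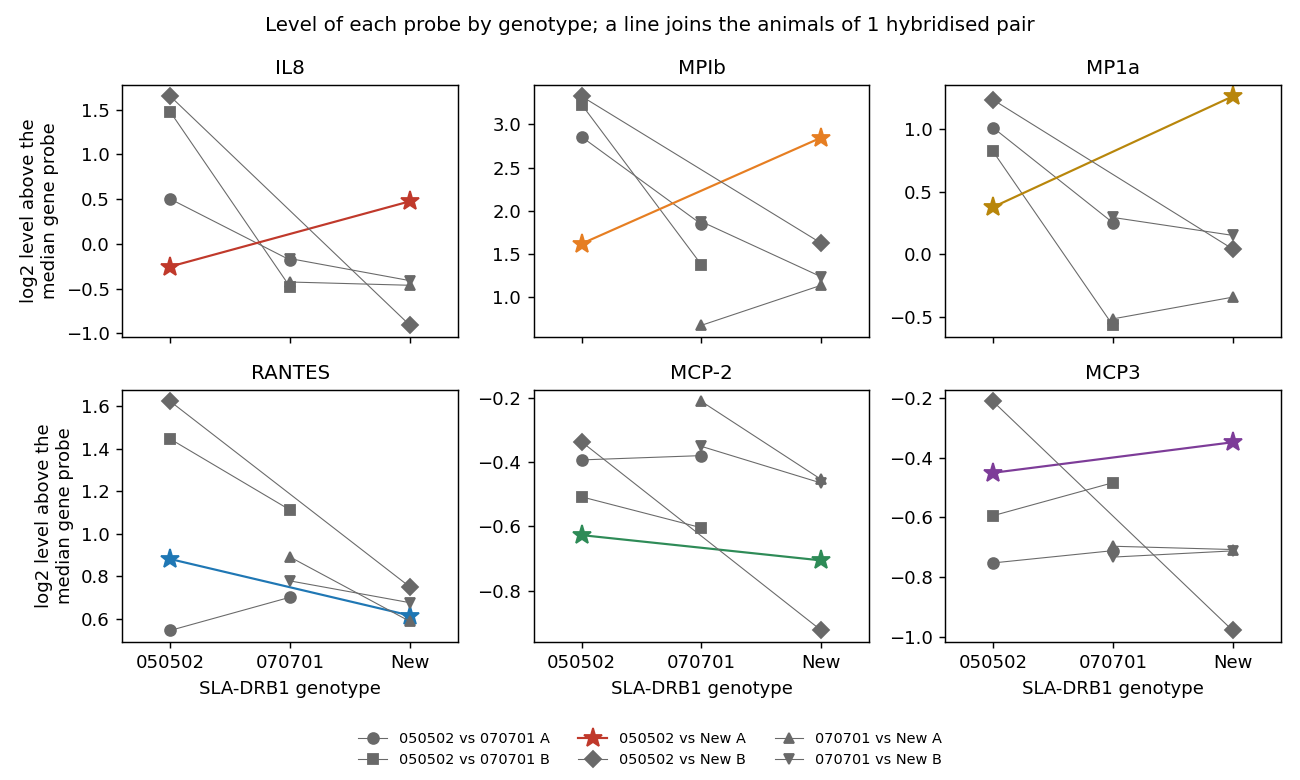
Log2 intensity of each probe above the median tested probe of its channel, by genotype, with a line joining the animals of 1 hybridised pair; stars in colour are pair A of 050502 vs New. For MPIb the star of 050502 is at 1.62 and that of New at 2.85, while the other 050502 levels are 2.85 to 3.32.

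The 3 genotype pairs form a loop, so the ratios of 050502 over 070701 and of 070701 over New add up to a predicted 050502 over New. For MPIb the predicted ratio was 1.56 and the measured mean 0.24 as labelled or 1.42 with pair A turned. For MP1a it was 1.09, against 0.15 or 0.99, and for IL8 it was 1.50, against 0.92 or 1.60. In all 3 of these the turned value was the nearer. Their mismatches as labelled were 1.32, 0.94 and 0.58. The SD between hybridised pairs of 050502 vs New (2.00, 1.40 and 2.26) is itself widened by the opposite signs of pairs A and B. It therefore cannot serve to judge these mismatches. RANTES had a predicted ratio of 0.33 against 0.57 or 0.26, and MCP-2 0.26 against 0.33 or 0.21, with both values of each within the spread between hybridised pairs. MCP3 had -0.05 against 0.33 or 0.39, and was the only probe of the 6 not nearer when turned. Over all 185 probes the median size of the mismatch was 0.114 as labelled and 0.0852 turned. Whether the labels of that hybridised pair are exchanged was not tested with any independent record.

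Dye exchange gives a check within the same RNA extracts. MPIb, MP1a and RANTES kept the same sign in 6 of 6 dye exchanges, IL8 in 5, MCP-2 in 4 and MCP3 in 1. Over all probes 57.7% of dye exchanges kept the sign. The median difference between exchanged arrays was 0.12 for MPIb, 0.14 for MP1a, 0.15 for RANTES, 0.20 for MCP-2, 0.32 for MCP3 and 0.36 for IL8, against 0.17 over all probes. The 8 spots of a probe on an array had a median SD between 0.11 for MPIb and 0.21 for IL8.

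Among the 6 probes, likeness was measured as the uncentred correlation (cosine) of the ratios over the 6 hybridised pairs, which share animals and arrays. MPIb and MP1a had a cosine of 0.99 and the same sign in 6 of 6 hybridised pairs. IL8 stood at 0.93 with MPIb and 0.94 with MP1a. RANTES and MCP-2 had 0.96 and also the same sign in 6 of 6. Between these groups the values were lower, at 0.47 and 0.48 for MPIb with RANTES and MCP-2, 0.47 and 0.48 for MP1a, and 0.73 and 0.73 for IL8. Without pair A of 050502 vs New, over 5 hybridised pairs, they were 0.67 and 0.62 for MPIb, 0.68 and 0.62 for MP1a, and 0.85 and 0.80 for IL8. IL8 was thus less set apart from RANTES and MCP-2 than MPIb and MP1a were. Turning a hybridised pair changes no cosine, since both probes change sign. MCP3 had 0.81 with MCP-2 and 0.47 with MPIb.

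The probes of other names most like MPIb were MP1a, IL10 (0.97) and IL1b (0.96), and those most like MP1a were IL10 (0.99), MPIb and IL1b (0.98). IL10 is a cytokine that restrains inflammation and IL1b a main inflammatory cytokine of monocytes. IL8 was most like Nalp3 (0.99), a component of the inflammasome, IL10Rb (0.98), a chain of the IL-10 receptor, and IL1a (0.96). RANTES was most like MCP-2 and both probes of IL12Rb2 (0.95 and 0.94), a chain of the IL-12 receptor. MCP-2 was most like RANTES, NOD2 (0.95), a sensor of bacterial peptidoglycan, and GM-CSFRa (0.94), a receptor of a myeloid growth factor. MCP3 was most like MIP-3a (0.94), IL3 (0.92) and GM-CSFRa (0.91). Of these companions, only Nalp3, IL1b, MPIb and RANTES were brighter than both negative controls.

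Receptors of these ligands were examined on 4 probes, IL8R, CCR1, MCP-1Ra and CCR3. In limma 0 of 4 passed in any genotype pair, also at unadjusted p under 0.05, and 0 of 4 were brighter than both negative controls. The median ratio of the list was -0.04 in 050502 vs 070701, then 0.19 in 050502 vs New (0.0043 turned, with 0 of 4 passing), and 0.04 in 070701 vs New. IL8R, for a receptor of IL-8 carried by neutrophils, was at 0.05 and 0.99 in pairs A and B of 050502 vs 070701. It was at -0.08 and 0.77 in 050502 vs New, and at -0.25 and 0.02 in 070701 vs New. Pair B thus had the higher IL8R ratio in each genotype pair.

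The other chemokine ligands on the array were MCP-1, MIP-3a, lymphotactin and SDF-1, and 0 of 4 passed limma in any genotype pair, also at unadjusted p under 0.05. All 4 were no brighter than at least 1 negative control. Their median ratios were -0.07, 0.02 and 0.0065 in the 3 genotype pairs in order, and -0.02 in 050502 vs New turned, where 0 of 4 passed and 2 had an unadjusted p under 0.05. MCP-1, the monocyte attractant CCL2, was at -0.13 and -0.31 in 050502 vs 070701, the sign opposite to that of IL8, MPIb and MP1a. It was at 0.25 and -0.34 in 050502 vs New, and at 0.14 and -0.13 in 070701 vs New.

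Of 8 inflammatory cytokine probes, 0 passed in limma in any genotype pair as labelled. At unadjusted p under 0.05 there were 1 (IL18), 2 (both IL12 subunits) and 0 in the 3 genotype pairs in order, and 1 of 8 (IL1b) was brighter than both negative controls. IL1b was at 1.59 and 2.16 in 050502 vs 070701, at -1.85 and 2.56 in 050502 vs New, and at 0.15 and 0.19 in 070701 vs New. IL1a was at 0.74 and 1.12, -0.81 and 1.68, and 0.45 and 0.24 in the same order. Both had the sign of IL8 in all 6 hybridised pairs. IL10 was at 0.44 and 0.58, -0.46 and 0.54, and -0.0085 and 0.05, with the sign of MPIb and MP1a in all 6. IL6, also an inflammatory cytokine, was at 0.09 in both hybridised pairs of 050502 vs 070701, and TNFa was at -0.01 and 0.22. In pair A of 050502 vs New, IL6 was at 0.05 and the probes of both IL12 subunits at 0.15 and 0.23, the sign opposite to that of IL1b. The list's median ratios were 0.31, 0.27 and -0.02. With pair A turned the median in 050502 vs New was 0.34, and 2 of 8 (IL1b and IL10) passed in limma in both 050502 vs New and 050502 vs 070701.

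Of 10 probes for NF-kB factors and bacterial sensors, again 0 passed limma in any genotype pair as labelled, with 1, 1 and 0 at unadjusted p under 0.05. Their median ratios were 0.13, 0.07 and 0.02, and with pair A turned 1 of 10 (TLR2) passed in 050502 vs New, with a median of 0.09. The 5 probes of the factors themselves, NFKB1 on 2 probes, NFKB2, c-REL and RelB, had mean ratios in 050502 vs 070701 from -0.0032 to 0.20. TLR2, a sensor of bacterial lipoproteins, was at 0.63 and 1.12 there, at -1.54 and 1.32 in 050502 vs New, and at 0.06 and 0.72 in 070701 vs New. The list as a whole did not follow TLR2 in pair A of 050502 vs New, where 5 of 10 probes were above 0 (median 0.0033).

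**Figure D5:**
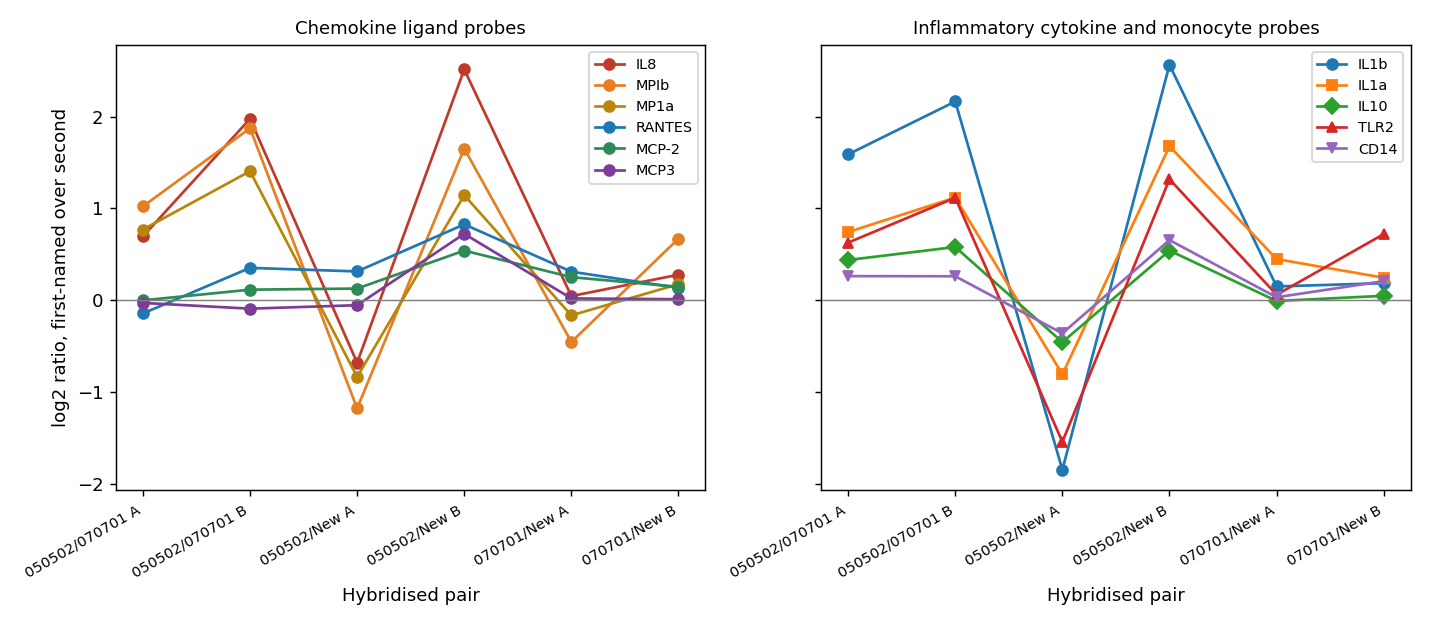
Log2 ratio of the first-named over the second genotype in the 6 hybridised pairs, for the 6 chemokine probes (left) and for IL1b, IL1a, IL10, TLR2 and CD14 (right). IL8, MPIb and MP1a lie below 0 in pair A of 050502 vs New. So do the 5 probes at the right, from -0.36 for CD14 to -1.85 for IL1b. Their lists were not uniform there. Above 0 lay 3 of 8 inflammatory cytokine probes, 5 of 10 probes for NF-kB factors and bacterial sensors, and 1 of 3 monocyte probes. Examples not drawn are TLR4 (0.10), IL6 (0.05) and both IL12 subunits (0.15 and 0.23).

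The 3 monocyte probes were TLR2, TLR4 and the lipopolysaccharide co-receptor CD14, and their median ratios were 0.26 and 0.34 in pairs A and B of 050502 vs 070701. They were -0.36 and 0.65 in 050502 vs New, and 0.03 and 0.21 in 070701 vs New. CD14 itself was at 0.26 and 0.26, -0.36 and 0.65, and 0.03 and 0.21, and TLR4 was at 0.14 and 0.34, 0.10 and 0.44, and -0.07 and 0.06. The medians had the sign of IL8 in all 6 hybridised pairs, with smaller sizes, but TLR4 had the opposite sign in pair A of 050502 vs New and pair A of 070701 vs New. The summed monocyte level ran from 1.97 to 3.96 on the log2 scale over the 4 hybridisations of 050502, from 2.37 to 3.05 in 070701 and from 2.07 to 3.07 in New. Turned, it ran from 3.07 to 3.96 in 050502 and from 1.97 to 2.70 in New. As labelled, 0 of 3 passed limma in any genotype pair, also at unadjusted p under 0.05, and 1 of 3 (TLR2) was brighter than both negative controls. With pair A turned, 1 of 3 (TLR2) passed in 050502 vs New, with a list median of 0.51. Their part in the chemokine ratios was not tested. In bulk cells, fewer cells of a type and less RNA per cell cannot be told apart.

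Of the 6 T cell probes, 5 had lower mean ratios in 050502 than in 070701, and the list's median ratios were -0.13, 0.0013 (-0.02 turned) and 0.02 in the 3 genotype pairs in order. All 5 B cell probes had mean ratios below 0 in 050502 vs New and in 070701 vs New, with list medians of -0.09, -0.62 (-0.39 turned, 4 of 5 lower) and -0.26. T cell probes had summed levels from 2.37 to 2.79 in 050502, 2.55 to 3.26 in 070701 and 2.44 to 2.65 in New, and 0 of 6 passed limma in any genotype pair, with 1, 0 and 1 (TCRa each time) at unadjusted p under 0.05. For the 2 probes of NK and cytotoxic cells the ranges were 1.85 to 3.09, 2.02 to 2.23 and 2.00 to 3.02, with 0 of 2 passing and 1, 0 and 1 (Granzyme each time) at unadjusted p under 0.05. For the 5 B cell probes they were 2.37 to 2.74, 2.67 to 3.04 and 2.69 to 3.19, with 0 of 5 passing as labelled, also at unadjusted p under 0.05, and 0 turned, with 1 at unadjusted p. With pair A turned, summed T cell levels ran from 2.37 to 2.79 in 050502 and from 2.49 to 2.65 in New. Turned NK and cytotoxic levels ran from 2.00 to 3.09 in 050502 and from 1.85 to 3.02 in New. Turned B cell levels ran from 2.37 to 2.74 in 050502 and from 2.52 to 3.19 in New. Neutrophils and platelets, which a density gradient can leave, had no probe in the marker list besides IL8R.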

How the data were processed

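RNA of blood mononuclear cells was amplified, per the labels' protocols, and copied into dye-coupled cDNA. Spot intensity values were deposited unnormalized. Per the file headers they came from GenePix Pro 6.0.1.25 and a GenePix 4000B scanner, at wavelengths of 635 and 532 nm, as did the percent of saturated pixels in each deposited spot. The authors' deposited table of log2 ratios (red over green) equalled the scanner software's ratio within 0.001 for 19694 of 19701 values, with column medians from -0.69 to 0.60. It was therefore not centred, and its direction is that of the dyes. It served as an alternative.

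Foreground medians were corrected with limma's normexp (offset 50) and normalized by loess within each array, with control and flagged spots at weight 0. Spots were averaged, ratios turned to the first-named genotype, and the arrays of a dye exchange averaged to 1 replicate. A channel counted as detected where at least 0.5 of a probe's spots exceeded background by 2 background SD. A probe was tested if detected on at least 6 of 12 arrays, which left out 3 of 188. The fit used limma 3.58.1 under R 4.3.3 on the 6 averaged ratios, with 1 coefficient per genotype pair (3 residual and 1.85 prior degrees of freedom), and p-values were adjusted by Benjamini-Hochberg over 185 probes at 0.05. The fit treats hybridised pairs as independent although they share animals. Slides fell into 5 scan batches. The only shared batch held pair A of 050502 vs 070701 and pair B of 070701 vs New, and each of the others held 1 hybridised pair. The procedure was tested on simulated data. Members, gene lists and tests were chosen with earlier results of these data known. The naming rule covered the 6 probes, the 3 probes most like each, list probes and called probes. Some list probes are given only in their list's counts and median, and 1 is not reported here.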

Additional observations from a re-analysis of the deposited data

Results flagged for a closer look

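Among the 18 groups of 4 arrays formed by the 6 chemokine probes and 3 genotype pairs, 0 held an array whose gap to the nearest other was large enough to pass Dixon's test. Arrays of a dye exchange share RNA and tend to lie together, so this test cannot flag a deviating hybridised pair.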

How the results depend on the processing

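The number of probes called by limma (2 for 050502 vs 070701, 0 for 050502 vs New, 2 for 070701 vs New) moved with several settings. For 050502 vs 070701 it was 1 with median centring, 0 from the deposited log2 ratios, 1 from the first and 1 from the second array of each dye exchange, 4 with pair A of 050502 vs New turned, and 6 with scan date as a random block. For 050502 vs New it was 4 with that pair turned. For 070701 vs New it was 1 from the deposited ratios, 1 from the first and 1 from the second arrays, and 9 with the scan date block. The scan date block was fitted to all 12 arrays, without averaging dye exchanges. Its counts therefore cannot separate the scan date from the larger number of replicates. Leaving out 1 hybridised pair gave 0 to 3, 0 to 2 and 0 to 3 calls, and the cause was not tested. With the pair letter as a replicate block the counts were 2, 0 and 3; deviations of same-lettered pairs correlated at 0.43 to 0.62, but with 2 letters this does not show that they share animals. No chemokine probe was among the calls of any of these settings except MCP3, without pair A of 050502 vs New. MPIb and RANTES were the 2 probes brighter than both negative controls under all 11 alternatives tried. Of 144 values of the 6 probes' ratios under 8 processing settings, an offset of 16 chosen after seeing the data included, 136 stayed within 1 SD between hybridised pairs. The 8 that moved further were all of MCP3, and 7 changed sign (MP1a and MCP3). Each SD comes from 2 values, from 0.0059 for MCP3 in 070701 vs New to 2.26 for IL8 in 050502 vs New. The count therefore does not rank the probes by stability. Exchanging the labels of pair A for levels and lists was also added after seeing the data. Over these settings the ratio for 050502 vs 070701 ran from 0.96 to 1.71 for IL8, from 1.33 to 1.56 for MPIb and from 0.74 to 1.14 for MP1a. Few arrays, and signals near or below those of the control DNAs for RANTES, MP1a, IL8, MCP-2 and MCP3, limit all these values.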
